A study of Mus musculus with 2343 samples.

Results

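The HOX genes measured here were the 38 listed members of the 4 mouse HOX clusters, chosen by name out of 45317 genes in the count table: 10 genes of cluster a, 10 of cluster b, 9 of cluster c and 9 of cluster d. They were followed in sorted mouse thymic epithelial cells, the stroma that supports and selects developing T cells. Cortical cells (cTECs) came from mice of the strain Eedflfl, called wild type (WT), and from Eedflfl::beta5tCre mice, called Eed. Medullary cells with high MHC class II (mTEChi) came from Eedflfl::ZsGreen mice (WT) and from Eedflfl::ZsGreen::beta5tCre mice sorted into reporter-negative (ZsGneg) and reporter-positive (ZsGpos) cells. All groups thus share the floxed Eed allele, the WT groups by strain carry no Cre, and neither cortical group carries the ZsGreen reporter. Cre is driven from the beta5t gene, which encodes the proteasome subunit Psmb11 of cortical and progenitor epithelium. Neither the age nor the number of mice stands in the labels used here. The data held 9 WT, 4 ZsGneg and 4 ZsGpos bulk mTEChi libraries of about 1000 cells, 15 small pools, and single cells of all 5 groups.

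HOX genes encode homeodomain transcription factors that give cells their position along the body axis. Within each cluster the genes lie in order of their paralog number: low numbers act towards the head and high numbers towards the tail and the tips of the limbs. Polycomb repressive complex 2 (PRC2), of which Eed is a core subunit, deposits H3K27me3, and HOX clusters outside their domain of activity are among its best known targets. The thymic epithelium comes from endoderm of the third pharyngeal pouch, a head-near region, and Hoxa3 is required there for the thymus to form.

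On GRCm38 the members of cluster a lie on chromosome 6 between 52162417 and 52260880, those of cluster b on chromosome 11 between 96194316 and 96368254, those of cluster c on chromosome 15 between 102921131 and 103036856, and those of cluster d on chromosome 2 between 74668225 and 74765142. Promoter windows of 300 bases were available in the RefSeq table (GRCm38.p6) for 22 of the 38 members. Below are the 200 bases before the start listed in that table for Hoxa2 and Hoxa3, the pair most often detected in WT cTECs, and for Hoxa7 and Hoxc4, the pair most often detected in Eed cTECs. They are given 5′ to 3′ on the gene's strand, with CG dinucleotides in capitals because CG-rich DNA is the known landing ground of Polycomb complexes. Hoxa2 is at chr6:52164832-52165031 (minus strand), Hoxa3 at chr6:52213068-52213267 (minus), Hoxa7 at chr6:52218574-52218773 (minus) and Hoxc4 at chr15:103034195-103034394 (plus). The listed start of Hoxc4 lies within its RefSeq span (103018097 to 103036856), so that stretch precedes an internal start and not the outermost one. For Hoxa3 the listed start is the outermost one of a long span (52169059 to 52213067) that also covers Hoxa4 to Hoxa6. Its stretch therefore lies between Hoxa6 and Hoxa7. Which starts were used in these cells was not examined.
Hoxa2: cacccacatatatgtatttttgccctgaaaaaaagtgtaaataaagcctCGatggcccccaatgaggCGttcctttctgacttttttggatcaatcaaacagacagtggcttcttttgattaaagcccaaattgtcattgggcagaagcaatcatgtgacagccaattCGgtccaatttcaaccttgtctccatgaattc
Hoxa3: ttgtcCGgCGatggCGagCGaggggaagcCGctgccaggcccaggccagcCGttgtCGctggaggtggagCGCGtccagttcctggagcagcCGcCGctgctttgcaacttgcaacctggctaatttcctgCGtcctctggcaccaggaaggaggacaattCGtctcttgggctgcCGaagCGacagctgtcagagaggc
Hoxa7: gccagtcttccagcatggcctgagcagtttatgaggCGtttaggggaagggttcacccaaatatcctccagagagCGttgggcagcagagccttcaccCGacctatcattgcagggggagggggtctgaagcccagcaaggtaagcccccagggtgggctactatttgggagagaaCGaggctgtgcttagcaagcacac
Hoxc4: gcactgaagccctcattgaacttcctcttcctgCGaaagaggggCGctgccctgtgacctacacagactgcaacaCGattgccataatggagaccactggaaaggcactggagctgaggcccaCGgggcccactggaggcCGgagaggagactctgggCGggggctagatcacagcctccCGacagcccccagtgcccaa
The printed stretch held 3 CG in Hoxa2, 15 in Hoxa3, 4 in Hoxa7 and 7 in Hoxc4. Of 27025 promoters of the table, 65.2% held at least as many CG as Hoxa2, 22.7% as many as Hoxa3, 57% as many as Hoxa7 and 42.9% as many as Hoxc4. The CG counts of the WT pair lay on both sides of those of the Eed pair, the higher count being that before the outermost Hoxa3 start. Over whole windows the 22 members had between 4 and 45 CG with a median of 13.5, against a median of 7 over all promoters, 36.9% of which held at least 13.5.

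Bulk libraries held 10519116 to 14990893 gene counts. Of the single cells, 1438 had at least 50000 gene counts and at least 1000 genes and were kept, 70.8% of the WT and 86.7% of the Eed cTECs and 57.7%, 70.4% and 40.2% of the WT, ZsGneg and ZsGpos mTEChi cells, with medians of 289438 to 538740 gene counts per group. Each single-cell group is 1 sample, so no test between groups is possible. Intervals (95%, exact binomial for shares, exact Poisson for levels) cover counting error only, and where no cell held a read the limit given is the share that 3 cells would make. The 2 cortical genotypes were each a separate set of wells, so genotype and plate cannot be told apart there. The targeted gene Eed stood at 34.2 counts scaled to a common total of gene counts (CPM) in WT and 20.9 CPM in Eed cTECs, and at 39.4, 46 and 25.3 CPM in single WT, ZsGneg and ZsGpos mTEChi cells. Counts per gene do not show the deletion itself. The summed level of 6 fixed cTEC markers was 13002 CPM in WT and 1922 CPM in Eed cTECs, and that of 6 mTEC markers 2150 to 2676 CPM in the mTEChi groups. Of 14 wells without template, 3 on plate SCGC1380 held 51838 to 73567 gene counts and 52 HOX reads, and the other 11 held no HOX read.

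WT cTECs transcribed the head-near end of clusters a and b. Hoxa2, which patterns the hindbrain and the second pharyngeal arch, had at least 1 read in 30.5% of the cells (95% interval 25.1 to 36.4). Hoxa3, the thymus-forming gene, was read in 23.2% (18.3 to 28.6) and its neighbour Hoxa4 in 5.88% (3.4 to 9.38). In cluster b, Hoxb2 was read in 13.2% (9.44 to 17.9) and Hoxb3 in 10.7% (7.26 to 15). These 5 genes were the only members above 5% in this group, and the other 33 were read in at most 2.21% of cells. All 5 have paralog numbers from 2 to 4. The share of a gene also depends on its length, which was not adjusted for, so the order between genes is not an order of molecules.

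Shares were lower further along cluster a. Of WT cTECs, 48.5% held a read of the 3 members Hoxa2 to Hoxa4, 2.94% a read of the 3 members Hoxa5 to Hoxa7, and 0.368% a read of the 4 members Hoxa9 to Hoxa13. Cluster b had the same order, with 23.5% for Hoxb1 to Hoxb4, 2.21% for Hoxb5 to Hoxb8 and 0.735% for Hoxb9 and Hoxb13. Clusters c and d, whose members start at numbers 4 and 1, were read in 3.31% and 5.15% of the cells. No read was found for 8 members in these cells, which allows a share of up to 1.1% each: Hoxa6, Hoxa10, Hoxa11, Hoxa13, Hoxb13, Hoxc12, Hoxd3 and Hoxd13. Reads of head-near members were less frequent in WT mTEChi cells. A member with paralog number 1 to 4, of any cluster, was read in 18.5% of them, against 59.6% of WT cTECs. Hoxa2 was read in 4.2%, Hoxa3 in 2.45%, Hoxb2 in 2.8%, Hoxb3 in 2.8% and Hoxa4 in 0.35% of WT mTEChi cells. These 5 were also the members whose share was at least 5 percentage points higher in WT cTECs than in WT mTEChi cells, 5 of 35 members read in either group or 14.3%, against 24% of all genes so placed. WT cTECs were read to a median of 538740 and WT mTEChi cells to 289438 gene counts, and on cells thinned to 100000 counts Hoxa2 stood at 27.1% in WT cTECs.

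**Figure D1:**
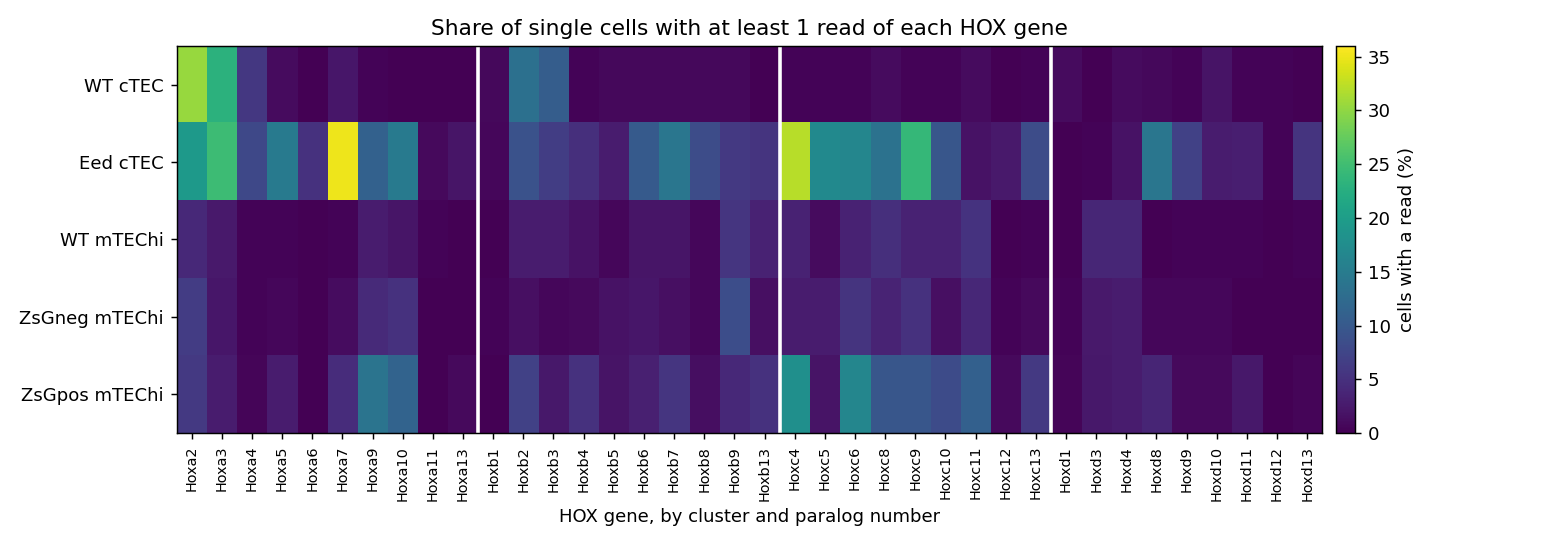
Share of kept single cells with at least 1 read (colour, %) for each of the 38 HOX genes (columns, ordered by cluster and paralog number, white lines between clusters) in the 5 groups (rows). WT cTECs are bright at Hoxa2, Hoxa3, Hoxb2 and Hoxb3, Eed cTECs along most of clusters a and c, with Hoxa7 at 35.1% and Hoxc4 at 32.1%.

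In Eed cTECs reads spread over the tail-near members of all 4 clusters. A member of paralog groups 5 to 13 was read in 70% of Eed cTECs (64.7 to 74.8) against 9.93% of WT cTECs (6.64 to 14.1). Members of groups 1 to 4 were read in 68.2% (62.9 to 73.1) against 59.6% (53.5 to 65.4). The summed level of all 38 members was 148.2 CPM (146.4 to 150.1) in Eed and 35.9 CPM (34.9 to 36.9) in WT cTECs. Of the 38 members, 20 had a share at least 5 points higher in Eed cTECs, where 12.9% of all genes did, and 1, Hoxa2, had a share at least 5 points lower, where 12% of all genes did; only 5 members were read in enough WT cTECs to be lower by that much. Over the members the median difference was 5.19 points, against -0.07 over all genes. With the cells thinned to a common 100000 gene counts, which left out 3 Eed and 4 WT cells, the mean number of members read per cell was 2.88 in Eed and 0.701 in WT cTECs, against 3.64 and 0.97 without thinning in those cells.

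Hoxa7, a trunk gene of the middle of cluster a, was the member read in most Eed cTECs, 35.1% (30 to 40.5), against 2.21% (0.814 to 4.74) of WT cTECs. Its level was 17.8 CPM (17.1 to 18.4) against 1.2 CPM in WT, where 1 cell gave 68.7% of its reads. Hoxc4, the most head-near gene of cluster c, was read in 32.1% (27.1 to 37.4) of Eed cTECs and in 1 WT cell, 0.368%, with 12.8 against 0.0507 CPM. The next gene in that cluster, Hoxc5, was read in 17.1% against 0.368% at 15.8 CPM, and Hoxc6, known for thoracic and limb patterning, in 16.5% against 0.368%. Each of these 3 genes was read in a single WT cTEC. Further along the cluster, Hoxc8 was read in 13.5% against 1.1% and Hoxc9, which marks the thoracic spinal cord and trunk, in 24% (19.5 to 29) against 0.368%. In cluster a, Hoxa5 was read in 14.7% against 1.1% and Hoxa10, a regulator of lumbar and uterine identity, in 14.7% (11.1 to 19) against no WT cell. Hoxb7 and Hoxd8, from the middle of their clusters, were each read in 14.1% (10.6 to 18.3) of Eed cTECs and in 0.735% of WT cTECs.

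The head-near genes of clusters a and b that were read in WT cTECs did not show such gains, unlike Hoxc4. Hoxa3 was read in 24.6% (20.1 to 29.6) of Eed and 23.2% (18.3 to 28.6) of WT cTECs, at 6.42 and 6.1 CPM, with intervals that overlap. Hoxa2 was lower in Eed cTECs on both measures, with 19.5% (15.4 to 24.2) against 30.5% of cells and 11.3 CPM (10.8 to 11.8) against 20 CPM (19.3 to 20.8). Hoxa4 stood at 7.81% against 5.88%. Hoxb2 and Hoxb3 stood at 9.01% and 6.61% in Eed cTECs against 13.2% and 10.7% in WT, within overlapping intervals. At the far end of the clusters shares in Eed cTECs were uneven. Hoxa11 was at 0.901%, Hoxa13 at 2.1%, Hoxc11 at 1.8%, Hoxc12 at 2.4%, Hoxd11 at 3% and Hoxd12 at 0.3%, while Hoxc10 was at 9.61% and Hoxc13, the end gene of cluster c, at 8.41% against 0.368% in WT. Hoxb13 and Hoxd13, the end genes of their clusters, were read in 5.41% each and in no WT cTEC. Hoxd1 had no read in Eed cTECs, which allows a share of up to 0.901%. In all, 25 of the 38 members passed 5% of Eed cTECs.

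**Figure D2:**
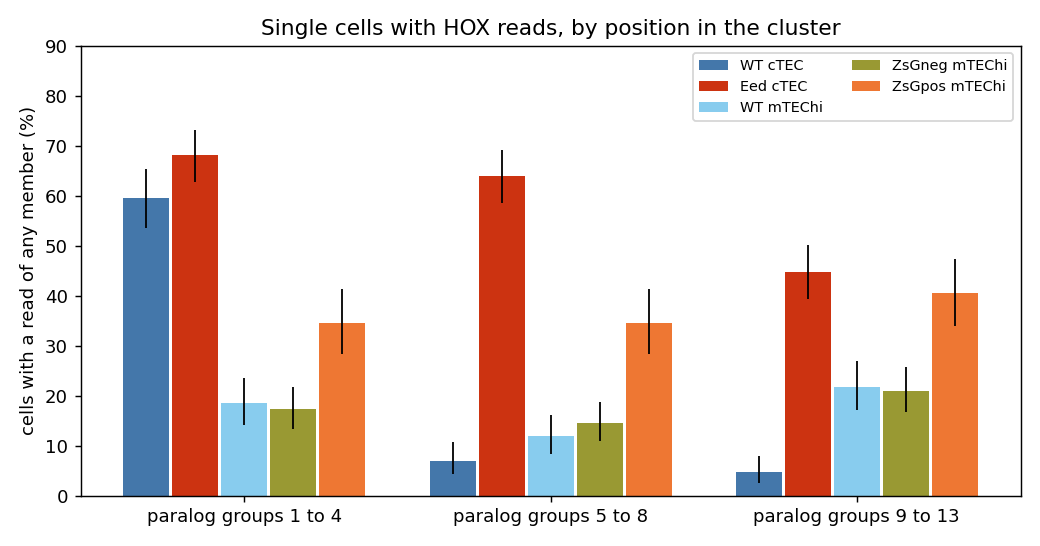
Share of single cells (%) with a read of any HOX gene of paralog groups 1 to 4, 5 to 8 or 9 to 13, all clusters together, in the 5 groups; error bars are exact 95% binomial intervals over cells of 1 sample. WT cTECs go from 59.6% to 6.99% and 4.78%, while Eed cTECs stay at 68.2%, 64% and 44.7%.

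Members from several clusters were read together in the same Eed cTEC. The mean number of members per cell was 3.64 in Eed cTECs (SD 2.97 over cells, highest 14) and 1.02 in WT cTECs (SD 1.09). At least 5 members were read in 33.3% (28.3 to 38.7) of Eed cTECs and in 1 WT cTEC. Of those Eed cTECs, 38 held reads from all 4 clusters and 56 from 3, 34.2% and 50.5% of them. Reads of groups 5 to 13 lay in the same cell as reads of groups 1 to 4 in 49.2% of Eed cTECs, and 20.7% held groups 5 to 13 alone. In WT cTECs the largest class held groups 1 to 4 alone, with 55.1% of cells. The only WT cTEC above 4 members held 10, had 63312 gene counts, no Psmb11 read and 5133 CPM of mTEC markers against 382.4 CPM in its whole group. Without that cell the share of WT cTECs with groups 5 to 13 was 9.59% and the mean number of members 0.989.

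Some pairs of neighbours were read in the same Eed cTEC at a higher share than the second gene had in all cells; pairs of genes that are not neighbours were not examined. Of 37 cells with Hoxa9, 26 also held Hoxa10, 70.3%, while 14.7% of all Eed cTECs held Hoxa10. Of 17 cells with Hoxa6, 14 held Hoxa7, 82.4% against 35.1% of all. Of 45 cells with Hoxc8, 22 held Hoxc9, 48.9% against 24%. Of 47 cells with Hoxb7, 8 held Hoxb8, 17% against 8.41%. Of 30 cells with Hoxb2, 3 held Hoxb3, 10% against 6.61%. Of 9 cells with Hoxd10, 8 held Hoxd11, but the RefSeq spans of these 2 genes overlap, and reads of overlapping transcripts cannot be told apart without strand. In all, 10 members have a span that overlaps another member's, among them Hoxa3, whose long transcripts cover Hoxa4 to Hoxa6.

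**Figure D3:**
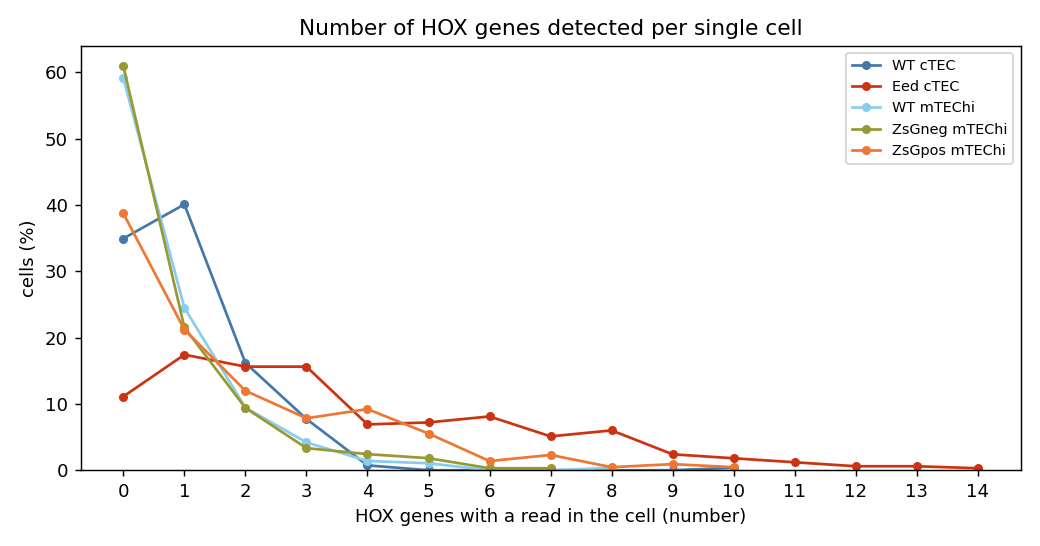
Share of kept single cells (%, vertical) by the number of the 38 HOX genes with a read in the cell (horizontal) in the 5 groups. The curve of Eed cTECs reaches out to 14 genes with 33.3% of cells at 5 or more, that of WT cTECs ends at 4 but for 1 cell with 10.

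Fibroblast markers moved with the cortical genotype. The summed level of the 10-gene list was 5488 CPM in Eed and 1538 CPM in WT cTECs, and all 10 genes were read in Eed cTECs while Pdgfra was at 0 in WT. Dcn alone made 4516 and 1492 CPM of these sums, and Prrx1, a limb and cranial mesenchyme factor, had 190 CPM in Eed and 0.0797 CPM in WT cTECs. Among the Eed cTECs, those above the median of the list held 4.42 members on average and 78.9% of them a member of groups 5 to 13, and those at or below it 2.86 members and 61.1% (53.2 to 68.5). Hoxc4 was read in 40.4% of the cells above and 24% of those at or below the median, while Hoxa7 stood at 38.6% and 31.7% and Hoxa2 at 18.7% and 20.4%. Over these cells Pearson's r between the list and the number of members was 0.18 and Spearman's rho 0.32, as a description of cells from 1 set of wells. Every Eed cTEC held a read of the list, so no Eed cell without it could be examined; of the 20 WT cTECs without a list read, 20% held a member of groups 5 to 13. No read of Prrx1, Col3a1, Lum or Pdgfra, 4 genes picked after their values were seen, was found in 39 Eed cTECs. Of them 16 held a member of groups 5 to 13, 41% (25.6 to 57.9), against 10.3% (6.71 to 14.9) of the WT cTECs so chosen. In these 39 cells Hoxa7 was read in 20.5% and Hoxc4 in 7.69%, and their median depth was 468840 gene counts. These cells still held reads of other list genes, and the part of fibroblast RNA in the HOX reads was not tested. In the 31 Eed cTECs with a Psmb11 read, 54.8% (36 to 72.7) held a member of groups 5 to 13, against 7.56% (4.09 to 12.6) of such WT cTECs.

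Single ZsGpos mTEChi cells held more HOX genes than either reporter-negative group. A member was read in 61.3% of ZsGpos cells (54.5 to 67.8), 40.9% of WT cells (35.2 to 46.9) and 39.1% of ZsGneg cells (33.8 to 44.6). The mean number of members per cell was 1.74, 0.696 and 0.73 in this order, and 1.42, 0.554 and 0.57 on cells thinned to 100000 gene counts. At least 5 members were read in 24, 4 and 8 cells. Shares at least 5 points higher in ZsGpos than in WT were found for 7 of 35 members read in either group, where 8.48% of all genes were so placed. Against ZsGneg there were 9 of 35, where 12% of all genes were. Between ZsGneg and WT no member was 5 points higher, where 2.5% of all genes were. Nothing can be read from shares lower by 5 points, since only 2 members were read in at least 5% of WT and 5 in at least 5% of ZsGneg cells: the count was 0 in each comparison, where 9.22% (ZsGpos against WT), 4.11% (ZsGpos against ZsGneg) and 11% (ZsGneg against WT) of all genes were so placed.

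Cluster c led the ZsGpos cells: 42.9% (36.2 to 49.7) held a read of it, against 19.2% (14.8 to 24.3) of WT and 15.8% (12 to 20.1) of ZsGneg cells. Hoxc4 was read in 18% (13.1 to 23.7) of ZsGpos cells, 3.5% of WT and 2.73% of ZsGneg cells. Hoxc6 was read in 16.6% (11.9 to 22.2), 3.5% and 5.45%. Hoxc11, a gene of the hind limb region, was read in 11.1% (7.22 to 16), 5.24% and 3.94%. Hoxc8 and Hoxc9 both stood at 9.68% in ZsGpos, against 4.9% and 3.5% in WT and 3.64% and 5.15% in ZsGneg. Hoxc10 was read in 8.29%, 3.5% and 1.52%, and Hoxc13, which acts in hair and nail, in 5.99%, 0.35% and 0.909%. Tail-near neighbours of cluster a followed, with Hoxa9 in 13.8% (9.53 to 19.1) of ZsGpos, 2.8% of WT and 4.24% of ZsGneg cells. Hoxa10 was read in 11.5% (7.6 to 16.5), 2.1% and 5.15%. Hoxb2 was read in 6.91%, 2.8% and 1.52%, and Hoxb7 in 5.53%, 2.1% and 1.52%. As a whole, cluster a was read in 26.7%, 10.1% and 17% of ZsGpos, WT and ZsGneg cells, cluster b in 26.3%, 16.4% and 14.2% and cluster d in 10.6%, 6.99% and 5.76%. Cluster c was thus the most read cluster in WT cells as well. Hoxa2 had overlapping intervals in the 3 groups, at 5.99%, 4.2% and 6.36%.

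Summed CPM told less than shares in medullary cells. All members together reached 67.8 CPM in ZsGpos, 44.6 CPM in WT and 48.4 CPM in ZsGneg, and single cells made up much of some genes' levels. Hoxb13, an end gene of cluster b, was read in 3.5% of WT cells at 17.9 CPM, with 57.2% of its reads in 1 cell. Hoxb9 was read in 5.59% of WT and 8.48% of ZsGneg cells at 4.33 and 9.67 CPM, against 4.15% and 2.52 CPM in ZsGpos. The intervals of these shares overlap, and their order changed by plate. On SCGC1373 Hoxb9 was read in 7.55% of ZsGpos, 2.08% of WT and 12.8% of ZsGneg cells, and on SCGC1379 in 1.37%, 13.7% and 11.2%. By plate the number of members and the summed level differed in order. On plates SCGC1373, SCGC1379 and SCGC1380 the mean number of members was 1.85, 1.84 and 1.58 in ZsGpos, 0.646, 0.824 and 0.564 in WT and 0.919, 0.719 and 0.671 in ZsGneg, so ZsGpos was highest on each by this measure. The summed level on the same plates was 84.8, 64.7 and 63.5 CPM in ZsGpos, 12.1, 47.8 and 52.7 CPM in WT and 33, 70.6 and 52.3 CPM in ZsGneg, so on SCGC1379 ZsGneg lay above ZsGpos. Hoxc4 was read in 18.9%, 19.2% and 15.7% of ZsGpos cells on these plates and in 4.17%, 0% and 2.73% of WT cells, where 0 of 51 cells allows a share of up to 5.88%. Fibroblast markers summed to 476.3 CPM in ZsGpos, 204.3 CPM in WT and 265.1 CPM in ZsGneg, and all 10 were read in each group. In cells without any read of the list the mean number of members was 1.4 in ZsGpos (48 cells), 0.527 in WT (91 cells) and 0.509 in ZsGneg.

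**Figure D4:**
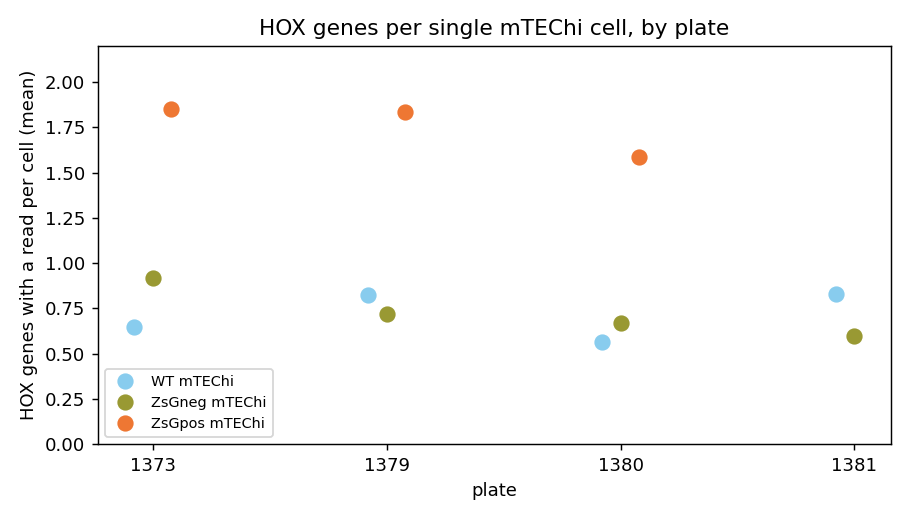
Mean number of HOX genes with a read per kept single mTEChi cell (vertical) by plate (horizontal) in the WT, ZsGneg and ZsGpos groups; the 2 ZsGpos cells of plate SCGC1381 are left out. ZsGpos lies at 1.58 to 1.85 on 3 plates, all other points at 0.56 to 0.92.

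The 9 WT bulk libraries carry 3 title numbers, and those with the same number were summed to 1 of 3 WT units. In bulk mTEChi cells the summed HOX level was 54.1, 54.7 and 58.8 CPM in the 3 WT units, 128.96, 44.6, 46.7 and 35.9 CPM in ZsGneg and 110, 129.9, 126.7 and 138.03 CPM in ZsGpos. All 4 ZsGpos units lay above the WT units and above 3 of the 4 ZsGneg units, and ZsGneg unit 1 lay among them. The mitochondrial share of counts was 9.15% to 14.9% in ZsGpos units and 5.54% to 7.83% in the others, and reads outside genes made up 39.1% to 43.4% in ZsGpos, 33.9% to 39.9% in WT and 29.7% to 33.3% in ZsGneg; their part in the summed level was not tested. Per library, 17 to 27 members had a count in ZsGpos, 11 to 20 in the 9 WT libraries and 9 to 19 in ZsGneg. The number of all genes with a count had the same order, with medians per library of 20199.5 in ZsGpos, 18720 in WT and 16892.5 in ZsGneg. The counts of members are thus not particular to HOX genes. The fibroblast list summed to 409.2 to 504.7 CPM in ZsGpos, 126.5 to 223.5 CPM in WT and 155.3 to 440.3 CPM in ZsGneg, where the highest value belonged to ZsGneg unit 1. Prrx1 had 101.95, 123.3, 114.2 and 24.1 CPM in ZsGpos, 1.11, 5.86, 1.65 and 0 CPM in ZsGneg and 0.511, 0.158 and 2.4 CPM in WT, and was the 1 list member past the threshold (edgeR quasi-likelihood test, ZsGpos against ZsGneg, adjusted p = 0.0357, from 1.62e-06 to 1 over the alternatives). The call was lost without any 1 of WT unit 1, ZsGneg units 1 and 3 and ZsGpos units 1, 2 and 3, with adjusted p (edgeR) between 0.0513 and 0.0918. Its part in the HOX level was not tested. In bulk, more cells with a transcript and more transcript per cell cannot be told apart.

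Single genes varied widely between units and none was called. Of the 38 members 21 passed the filter on low counts, and edgeR's quasi-likelihood test with Benjamini-Hochberg adjustment over 18931 genes called 0 of them for ZsGpos against WT, where 0.38% of all genes were called, 0 for ZsGneg against WT (0.0423%) and 0 for ZsGpos against ZsGneg (2.66%). At an unadjusted p under 0.05 the counts were 0, 4 (all lower in ZsGneg) and 6 (5 higher in ZsGpos), where 8.94%, 10.1% and 18.3% of all genes fell. Nothing in the labels says that units came from separate mice, so the p-values speak only of the spread from unit to unit. DESeq2 called 0, 0 and 5, where it called 2.9%, 2.84% and 10.6% of all genes. The median log2 fold change of the 21 was 0.77, -1.01 and 0.97, against -0.05, -0.15 and 0.14 over all genes tested. These medians moved with single units and settings: ZsGneg against WT stood at -0.0050 without WT unit 1, -0.0047 without WT unit 2 and -0.36 without WT unit 3, ZsGpos against ZsGneg at 1.89 without ZsGneg unit 1 and 3.04 with the replicate block, and ZsGpos against WT at 0.25 with the share of reads outside genes in the fit and 1.25 without WT unit 2. The 21 had passed a filter set over the 3 groups together. When 2 groups at a time were filtered and fitted, 18, 12 and 9 members were tested, in the same order of comparisons. Their median log2 fold changes were 0.82, -0.125 and 0.67, against -0.0005, -0.105 and 0.11 over all genes tested. For ZsGneg against WT 6 members were then higher and 6 lower, so the -1.01 of the 21 did not hold there. Only 1 of the 38 members had a count in all 11 units, and in 18 members 1 unit held over 50% of the sum.

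In cluster c, Hoxc6 had 0.455, 0.079 and 3.44 CPM in WT, 0, 0, 0 and 0.202 CPM in ZsGneg and 9.49, 24.9, 9.11 and 16.8 CPM in ZsGpos units. The ZsGpos units did not overlap either other group. Against ZsGneg, whose 4 units held 3 counts in all, the ratio of summed counts was 270 (counting interval 92.1 to 1310; edgeR quasi-likelihood adjusted p = 0.0678, from 1.9e-05 with DESeq2 to 1 over the alternatives), and against WT it was 10.7 (9.05 to 12.8; edgeR adjusted p = 0.719). The fitted log2 fold change against WT was 3.45, and 5.73 without WT unit 3 and 2.89 without WT unit 2; all 3 counts of ZsGneg lay in its unit 4. Hoxc9 had 12.4, 2.63 and 1.45 CPM in WT, 0, 4.74, 3.67 and 2.42 CPM in ZsGneg and 6.45, 10.6, 6.68 and 22.1 CPM in ZsGpos. It was higher in every ZsGpos than in every ZsGneg unit but overlapped WT. Hoxc13 had 0.0852, 2.48 and 0 CPM in WT, 0, 0, 0 and 0.134 CPM in ZsGneg and 1.66, 9.22, 0.271 and 6.46 CPM in ZsGpos. The ratio to the 2 counts of ZsGneg was 120 (32.8 to 997; edgeR adjusted p = 0.183, over the alternatives from 0.0494 with DESeq2 to 1). Hoxc4 had 1.9, 1.79 and 0 CPM in WT, 0, 0.172, 0 and 2.15 CPM in ZsGneg and 0.276, 0, 14.2 and 16.9 CPM in ZsGpos, so only 2 of 4 ZsGpos units were high.

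Other genes of the cluster were spread over all groups. Hoxc8 had 11, 6.4 and 5.31 CPM in WT, 14.1, 13.4, 0 and 4.9 CPM in ZsGneg and 24, 19.1, 4.6 and 6.84 CPM in ZsGpos. Hoxc10 had 0, 4.92 and 9.46 CPM in WT, 0, 0, 0 and 6.05 CPM in ZsGneg and 2.58, 0, 0 and 9.79 CPM in ZsGpos. Hoxc11 had 4.57, 7.27 and 2.91 CPM in WT, 14.9, 0.0861, 0.15 and 0.134 CPM in ZsGneg and 3.22, 7.35, 2.53 and 27.1 CPM in ZsGpos. For these 3 genes the groups overlapped in each comparison. Hoxc12 came almost wholly from ZsGneg unit 1, with 12.2 CPM there, 0.199 CPM in WT unit 1 and no count in the other 9 units.

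In cluster a, Hoxa10 had 0, 2.53 and 2.81 CPM in WT, 0, 0, 28 and 0.269 CPM in ZsGneg and 33.4, 13, 4.15 and 9.51 CPM in ZsGpos. Every ZsGpos unit was above every WT unit, with a ratio of 7.97 in summed counts (6.83 to 9.33; edgeR adjusted p = 0.972), while 1 ZsGneg unit was as high. The fitted log2 fold change of 2.98 was 2.28 without ZsGpos unit 1 and 3.47 without WT unit 3. Hoxa10 and Hoxc6 were the 2 members without overlap above WT, where 2.97% of all genes with a count were. Hoxa9 had 0.17, 5.4 and 0 CPM in WT, 14.7, 6.37, 0 and 0.134 CPM in ZsGneg and 1.75, 9.69, 1.17 and 0.856 CPM in ZsGpos. Hoxa5, a gene of lung and neck patterning, had 0, 0.0263 and 0.0231 CPM in WT, 0, 0.258, 0.075 and 0.0672 CPM in ZsGneg and 5.07, 0, 0.992 and 0.38 CPM in ZsGpos. Neither separated the groups. Hoxa2 went the other way, with 5.71, 0.0527 and 0 CPM in WT, 0, 0.344, 9.07 and 17.3 CPM in ZsGneg and 0, 0, 0.271 and 0.0951 CPM in ZsGpos (ZsGpos against ZsGneg, edgeR adjusted p = 0.261). Hoxa3 had 0.284, 0 and 0.623 CPM in WT, 19.1, 0, 3.3 and 0 CPM in ZsGneg and 0, 1.02, 0.992 and 0 CPM in ZsGpos, so the highest values of both head-near genes lay in ZsGneg units.

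In cluster b, Hoxb7 had 0.682, 0 and 0.0923 CPM in WT, no count in the 4 ZsGneg units and 3.22, 1.56, 0.0902 and 9.13 CPM in ZsGpos. Set against a floor of 3 counts over the ZsGneg group, ZsGpos was at least 58.7-fold higher (edgeR adjusted p = 0.12, over the alternatives from 0.0386 with DESeq2 to 1). Hoxb4 had 2.67, 0.369 and 0.185 CPM in WT, 0, 0.0861, 0 and 0 CPM in ZsGneg and 0, 2.89, 3.34 and 6.56 CPM in ZsGpos (edgeR adjusted p = 0.147, over the alternatives from 0.0358 with DESeq2 to 1). The ZsGneg group thus held 1 count of Hoxb4 and lay below every WT unit. Hoxb9 had 6, 0.105 and 8.47 CPM in WT, 33.01, 5.08, 0 and 0.269 CPM in ZsGneg and 0, 6.25, 17.5 and 0 CPM in ZsGpos. Hoxb13 had 1.19, 2.32 and 2.95 CPM in WT, 15.8, 0, 0 and 0 CPM in ZsGneg and 0, 0.782, 0.361 and 0.285 CPM in ZsGpos. It was the 1 member lower in every ZsGpos than in every WT unit, where 7.23% of all genes were. Hoxb2 had 0.142, 0 and 0.0231 CPM in WT, 0, 1.81, 0.075 and 0 CPM in ZsGneg and 0, 0.0782, 13.3 and 0 CPM in ZsGpos. Hoxb3 had 0, 0.105 and 0.392 CPM in WT, 0, 2.76, 0 and 0 CPM in ZsGneg and 7.09, 6.72, 0 and 0.475 CPM in ZsGpos. Hoxb6 had 4.18, 0.158 and 5.08 CPM in WT, 1.19, 3.7, 0 and 0.873 CPM in ZsGneg and 0, 0, 0 and 4.18 CPM in ZsGpos. These last 3 genes overlapped between all groups.

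In cluster d, Hoxd8 had 0.17, 2.92 and 10.5 CPM in WT, 0, 0.517, 0 and 0 CPM in ZsGneg and 10.8, 2.42, 11.8 and 0.285 CPM in ZsGpos. ZsGpos stood at 54.5 times the ZsGneg level in summed counts (24.7 to 150; edgeR adjusted p = 0.215, over the alternatives from 0.0275 with DESeq2 to 1) and overlapped WT. Hoxd10 had 0.0852, 9.56 and 0 CPM in WT, 0, 3.88, 0 and 0 CPM in ZsGneg and 0, 0.782, 13.8 and 0 CPM in ZsGpos. Its neighbour Hoxd11 had 0, 0.079 and 0.415 CPM in WT, 0, 0.689, 0 and 0.0672 CPM in ZsGneg and 0, 0.234, 17.95 and 0 CPM in ZsGpos. Both genes, which shape the limb, had their highest value in ZsGpos unit 3, while in WT unit 2 only Hoxd10 was high. Their RefSeq spans overlap, and reads of overlapping transcripts cannot be told apart without strand. Hoxd4 had 0.312, 3.11 and 1.25 CPM in WT, 2.86, 0, 0 and 0.134 CPM in ZsGneg and 0, 4.85, 0 and 0 CPM in ZsGpos. Hoxd13, the digit gene at the end of the cluster, had 0.0284, 0.105 and 0 CPM in WT, no count in ZsGneg and 0.0921, 4.22, 0 and 0 CPM in ZsGpos. The 13 members not described here had a mean of at most 0.982 CPM in every group. Hoxa7, the leading gene of Eed cTECs, was among them, with 2.03 CPM in ZsGpos unit 2 as its highest value. Against ZsGneg 4 members were higher in every ZsGpos unit (Hoxb7, Hoxc6, Hoxc9 and Hoxc13), where 3.41% of all genes were, and against WT 2 were lower in every ZsGneg unit (Hoxb4 and Hoxd9), where 7.91% were. Hoxd9 had 0.227, 0.79 and 0.0231 CPM in WT and no count in ZsGneg, so its separation rests on a value near the floor. WT units held 35197445 to 43344149 gene counts and ZsGneg units 11611119 to 14886657, so rare transcripts were more readily counted in WT.

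**Figure D5:**
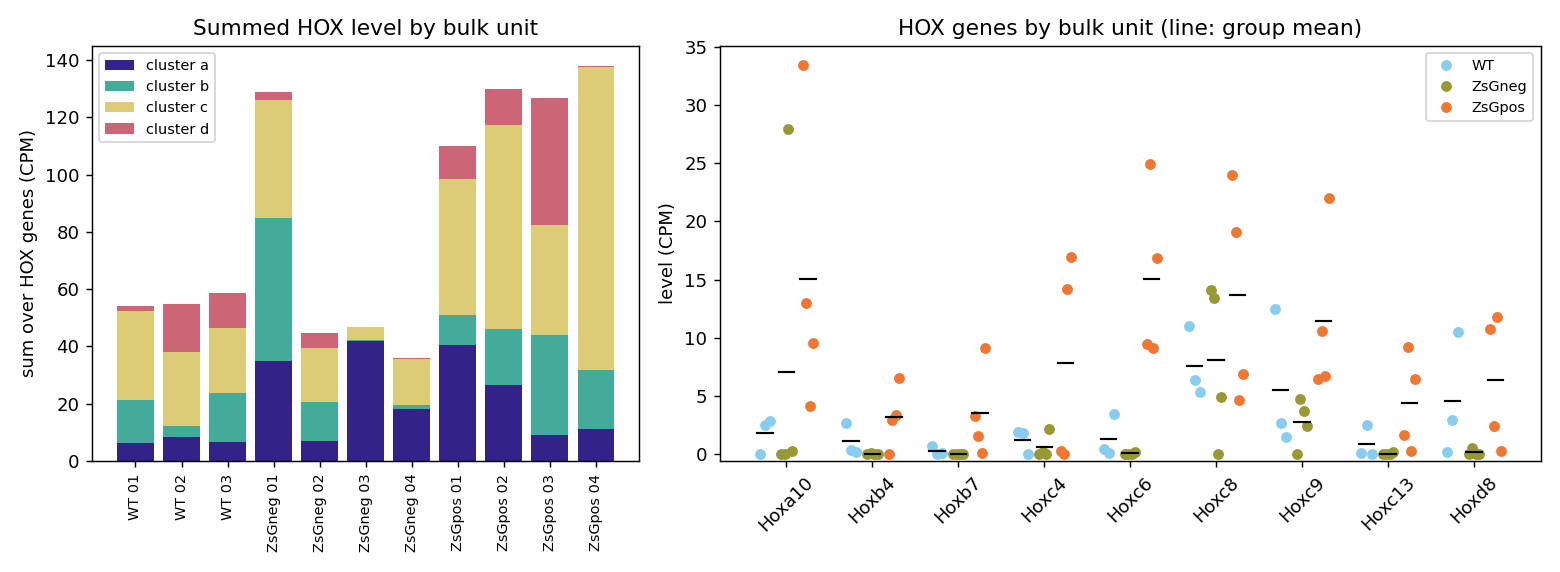
Left, summed level of the 38 HOX genes (CPM) in each bulk mTEChi unit, stacked by cluster. Right, level (CPM) of 9 HOX genes with 1 point per unit and a line at the group mean. The 4 ZsGpos units reach 110 to 138.03 CPM and the WT units 54.1 to 58.8 CPM. Cluster c is the tallest part in 3 of the 4 ZsGpos units and also in every WT unit, at 30.9, 25.8 and 22.6 CPM there.

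The small pools held few HOX counts. Pools other than an almost empty ZsGpos well with 68 counts held 10332 to 180374 gene counts. On plate SCGC1373, 731 genes passed the filter, none of them a member, so edgeR's test could call 0 of 0 members where it called 2.74%, 0.547% and 3.69% of genes for ZsGpos against WT, ZsGneg against WT and ZsGpos against ZsGneg. Without the filter 8 members were tested and 0 called. Over all pools, 17 HOX counts of 10 members lay in the 6 ZsGpos pools, 5 of 5 members in the 6 WT pools and 1 of Hoxc11 in the 3 ZsGneg pools. Hoxc8 in ZsGpos pool 1, with 3 counts, had the most.

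The 9 TALE homeodomain cofactors, which bind DNA together with HOX proteins, summed to 831 CPM in WT and 944 CPM in Eed cTECs and to 236.3 to 243.5 CPM in the 3 mTEChi groups. Meis1 stood at 279.5 CPM in WT and 236.99 CPM in Eed cTECs and at 26 CPM in WT mTEChi cells. In bulk, 0 of the 9 were called in any comparison. Of the 13 HOX activators and remodellers 12 were tested, and Cdx1 alone was called, lower in ZsGpos than in WT and than in ZsGneg. Cdx1, a caudal-type activator of HOX genes that also marks gut, fell in ZsGpos: it had 44, 62.5, 74.7 and 59.2 CPM there, 155.8, 225.7 and 210.8 CPM in WT and at least 131.7 CPM in each ZsGneg unit (log2 fold change -1.75, SE 0.31, edgeR adjusted p = 0.0254 against WT and -1.94, SE 0.29, adjusted p = 0.00306 against ZsGneg). Against WT the call was lost without any 1 of the 3 WT units or of ZsGpos units 1, 2 and 4, with adjusted p (edgeR) between 0.0512 and 0.159, and against ZsGneg it held without any 1 unit. In single cells Cdx1 was read in 80.1% of WT and 55.3% of ZsGpos mTEChi cells but in 2.94% of WT and 0.3% of Eed cTECs. The retinoic acid receptor Rarg, whose family drives HOX clusters from the head-near end, stood at 124.02 CPM in Eed and 56 CPM in WT cTECs. Of the 10 ParaHox and HOX-linked genes 3 were tested in bulk and 0 called.

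Hotairm1, transcribed from the head-near end of cluster a, was read in 42.6% of WT and 33.3% of Eed cTECs and in 2.45% of WT mTEChi cells. Hoxaas2, antisense to cluster a, was read in 20.6%, 11.7% and 2.1%; without strand its reads cannot be told from those of Hoxa3. Hotair, in cluster c, had 17.6, 13 and 8.03 CPM in the WT bulk units, 0, 0, 0 and 1.48 CPM in ZsGneg and 1.01, 0.782, 0 and 0.856 CPM in ZsGpos. All WT units were above all others, and neither comparison with WT passed (edgeR adjusted p = 0.647 for ZsGpos and 0.483 for ZsGneg). Of the 15 non-coding genes of the clusters 2 were tested in bulk and 0 called. Hotairm1 and Hoxaas2 were chosen after their values were seen.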

How the data were processed

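Mouse thymic epithelial cells were digested out with enzymes, sorted, and their polyadenylated RNA read by SMART-seq2, per the labels' protocols. The deposited tables hold raw read counts per gene made by the authors, without molecular identifiers. Per the submitters' processing notes the build was mm10 and the tools included HISAT 0.1.6, HTSeq, Trimmomatic and FastQC, besides BWA 0.5.9 and MACS2, with no role or order given. No source used here says whether counting used strand. Of all reads in the table, 21.7% were in no gene, 2.71% ambiguous and 6.59% not unique, and these rows stayed out of library sizes and tests, as did 92 ERCC spike-in rows. The 7 ChIP samples and 17 repeat runs were not analysed here.

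Levels (CPM) are counts scaled to 1 common gene total per library. Bulk units and the 9 pools of plate SCGC1373 were tested with edgeR 4.0.16 (quasi-likelihood, TMM, filterByExpr, Benjamini-Hochberg over all genes tested, adjusted p under 0.05), with 3 groups in 1 fit and no block. DESeq2 1.42.0 was an alternative. The edgeR script was tested on simulated data. Replicate numbers were not taken as pairs: same-numbered units had correlations of -0.021 to 0.018 in their deviations from the group means. Single cells with at least 50000 gene counts and 1000 genes were kept: 272 of 384 WT and 333 of 384 Eed cTECs, and 286 of 496 WT, 330 of 469 ZsGneg and 217 of 540 ZsGpos mTEChi cells. No doublet caller was run, and each group counts as 1 sample with no test. Intervals were computed with scipy 1.17.1 at 95% and floors use 3 counts; both cover counting error only, since PCR copies were not told apart.

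The members and lists were chosen with earlier results of these data known. Bulk values are given for members with a mean of at least 1 CPM in a group, single-cell values for those read in at least 5% of the cells of a group (at most 12 per group), and values of other lists for genes called or at 5 CPM or more in a bulk group. RefSeq GRCm38.p6 gave coordinates and promoter windows.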

Additional observations from a re-analysis of the deposited data

Results flagged for a closer look

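Among the 4 bulk units of a group, a value was set aside where its distance to the nearest other unit was most of the group's range. The HOX levels of the WT and of the ZsGpos small pools were examined in a like way. Of 51 groups of values in all 24 held such a value, each among bulk units, 17 in ZsGneg and 7 in ZsGpos, over 19 members. Chance gives about 1 in 20 for normally distributed values. That rate does not hold for these sparse counts, where any count meets the rule once the other 3 units are at 0. This was so for Hoxb4, Hoxc6, Hoxc13 and Hoxd8 in ZsGneg.

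In ZsGneg, unit 1 held the summed HOX level of 128.96 CPM as well as Hoxb9 at 33.01 CPM, Hoxb13 at 15.79 CPM, Hoxc11 at 14.92 CPM, Hoxc12 at 12.22 CPM and Hoxd4 at 2.857 CPM. ZsGneg unit 2 held Hoxb2 at 1.809 CPM, Hoxb3 at 2.756 CPM, Hoxb4 at 0.08612 CPM, Hoxd8 at 0.5167 CPM, Hoxd10 at 3.876 CPM and Hoxd11 at 0.689 CPM. ZsGneg unit 3 held Hoxa10 at 27.97 CPM. ZsGneg unit 4 held Hoxc4 at 2.15 CPM, Hoxc6 at 0.2015 CPM, Hoxc10 at 6.046 CPM and Hoxc13 at 0.1343 CPM. In ZsGpos, unit 2 held Hoxa9 at 9.694 CPM, Hoxd4 at 4.847 CPM and Hoxd13 at 4.221 CPM, unit 3 held Hoxb2 at 13.35 CPM, Hoxd10 at 13.8 CPM and Hoxd11 at 17.95 CPM, and unit 4 held Hoxb6 at 4.183 CPM. Each of these was the highest value of its group.

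Wells without template held 52 HOX reads of 5 members, all in 3 wells of plate SCGC1380 with as many gene counts as kept cells.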

How the results depend on the processing

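edgeR's quasi-likelihood test called 0 HOX members in each bulk comparison under the other scaling, without the filter, with 2 groups in the fit, with a covariate for reads lying outside genes and with the 9 WT libraries entered singly. It also called 0 with each unit left out (0 to 0 members). With the replicate block 0 members were called in each bulk comparison; the pools gave 0 to 0 with each pool left out. DESeq2 called 5 members for ZsGpos against ZsGneg. The share of all genes called moved more: 0.38%, 0.0423% and 2.66% for ZsGpos against WT, ZsGneg against WT and ZsGpos against ZsGneg became 2.9%, 2.84% and 10.6% with DESeq2, 0.831%, 0.368% and 2.42% without the filter, 1.67%, 0.768% and 2.45% with 9 WT libraries, 0.678%, 0.00583% and 2.37% with 2 groups, 0.301%, 0.00528% and 1.81% with the block, and 0.0264%, 0.0106% and 0% with the covariate. With that covariate the log2 fold change turned to 0.21 for Hoxb13 (ZsGpos against WT), -0.18 for Hoxb4 and -1.69 for Hoxc13 (ZsGpos against ZsGneg), and Cdx1 lost both calls and Prrx1 its call. Prrx1 for ZsGpos against WT passed with 5 alternatives, DESeq2 among them. The cause was not tested.

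The share of cells with groups 5 to 13 counted at 5 reads or more was 6.62% in WT and 63.7% in Eed cTECs and 16.4%, 19.1% and 36.4% in WT, ZsGneg and ZsGpos mTEChi cells; thinned WT mTEChi cells gave 22.4%. In cells without a fibroblast-list read, an alternative added after the data were seen, it was 20% in 20 WT cTECs, 19.8% in WT and 23.6% in ZsGneg mTEChi cells. With no list read other than Dcn, also added later, it was 6.35% in WT and 53.3% in 15 Eed cTECs, whose summed levels were then 28.2 and 85.4 CPM. Summed levels in cells without a list read were 31.7, 43.1 and 62.3 CPM in WT, ZsGneg and ZsGpos mTEChi cells. The mean of per-cell levels was 45 and 144.97 CPM in WT and Eed cTECs and 52.7 and 79.6 CPM in ZsGneg and ZsGpos. The stricter filter on cells gave 34.7 CPM in WT cTECs, 50.1 in ZsGneg and 64.7 in ZsGpos. Leaving out plate SCGC1373 gave 51.5, 53.1 and 64.2 CPM in WT, ZsGneg and ZsGpos, leaving out SCGC1379 gave 36 and 71 CPM in ZsGneg and ZsGpos, leaving out SCGC1380 gave 40.4 and 69.7 CPM in WT and ZsGpos, and leaving out SCGC1381 gave 41.4 and 54.9 CPM in WT and ZsGneg. In every one of these settings that was run for both groups of a pair, the Eed cTEC value was above that of WT cTECs and the ZsGpos value above those of WT and ZsGneg mTEChi cells.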
